A study of Mus musculus with 3 samples.

Results

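The cadherins and the non-clustered protocadherins are 35 protein-coding genes of the 39179 genes in the deposited table. They were chosen by name as every protein-coding gene with a symbol of Cdh or Pcdh followed by a number, with Pcdh11x included, which gives 23 cadherin and 12 protocadherin genes. The rule used no measured value. RNA came from mouse embryonic stem cells of a Contactin2:eGFP line that also carried a lentiviral aMHC:mCherry reporter, differentiated in culture, given sodium nitroprusside on day 4 and sorted by fluorescence on day 25. All populations had this same treatment and the same line, and there was 1 library for each. GFP cells were eGFP-positive and dim for mCherry, MHC cells were mCherry-positive, and NEG cells had neither reporter. The mCherry gene was driven by the promoter of the alpha myosin heavy chain gene from a lentivirus, so the sort followed reporter activity in a single transduced line. With a single library on each side, the differences have no measure of replicate spread, and p-values cannot be had.

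Classical cadherins are calcium-dependent adhesion proteins that bind the same protein on a neighbouring cell and hold the actin cytoskeleton through catenins. Type I cadherins such as N-cadherin build strong junctions, among them those of the intercalated disc of heart muscle. Type II cadherins differ in the adhesive face of their outermost repeat, and Cdh11 of this group is a known cadherin of mesenchymal cells. Protocadherins share the extracellular repeats but lack the catenin-binding tail, and the delta classes are best known from developing neural tissue.

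Recovered reads numbered 52109065 in GFP cells, 52826956 in MHC cells and 47289405 in NEG cells, and the values below are read counts divided by the size factor of each library. The reporter genes followed the labels, Cntn2 being at 10045 in GFP cells, 228 in MHC cells and 204 in NEG cells, and Myh6 at 4694 in GFP cells, 186924 in MHC cells and 3843 in NEG cells. Epicardial and mesothelial markers were higher in GFP than in both other libraries for 12 of 12 genes, and their summed value was 223704 in GFP cells, 8799 in MHC cells and 9111 in NEG cells. Cardiomyocyte markers summed to 16700 in GFP cells, 315001 in MHC cells and 10293 in NEG cells. Myh6 is among them and gave 186924 of the MHC sum. Its promoter drove the mCherry of the sort, so this sum partly restates the sort. Of these 10 genes, GFP had 9 lower than MHC, while 5 were higher and 1 lower in GFP than in NEG. In RNA of sorted bulk cells, fewer cells of a type and less RNA per cell cannot be told apart.

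A gene was called higher or lower where the ratio of (value + 1) was 2 or more and the higher library stood at 20 or more. This sets a size and tests nothing. By it, 26 of the 35 members reached 20 in at least 1 library. The values behave as counts over the whole gene, introns included, with a read counted into every gene that overlaps it. On that reading, 6 members overlap a gene that has at least 25% as many reads as they have: Cdh8, Cdh15, Cdh18, Cdh23, Cdh24 and Pcdh15. Their values are uncertain as measures of the cadherin itself. Such genes are said below to share reads. The part of a gene's own reads in the overlap can be smaller, and it was not measured for Cdh24, which meets its larger partner at one end only. The plot of all members shows the values by role.

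**Figure D1:**
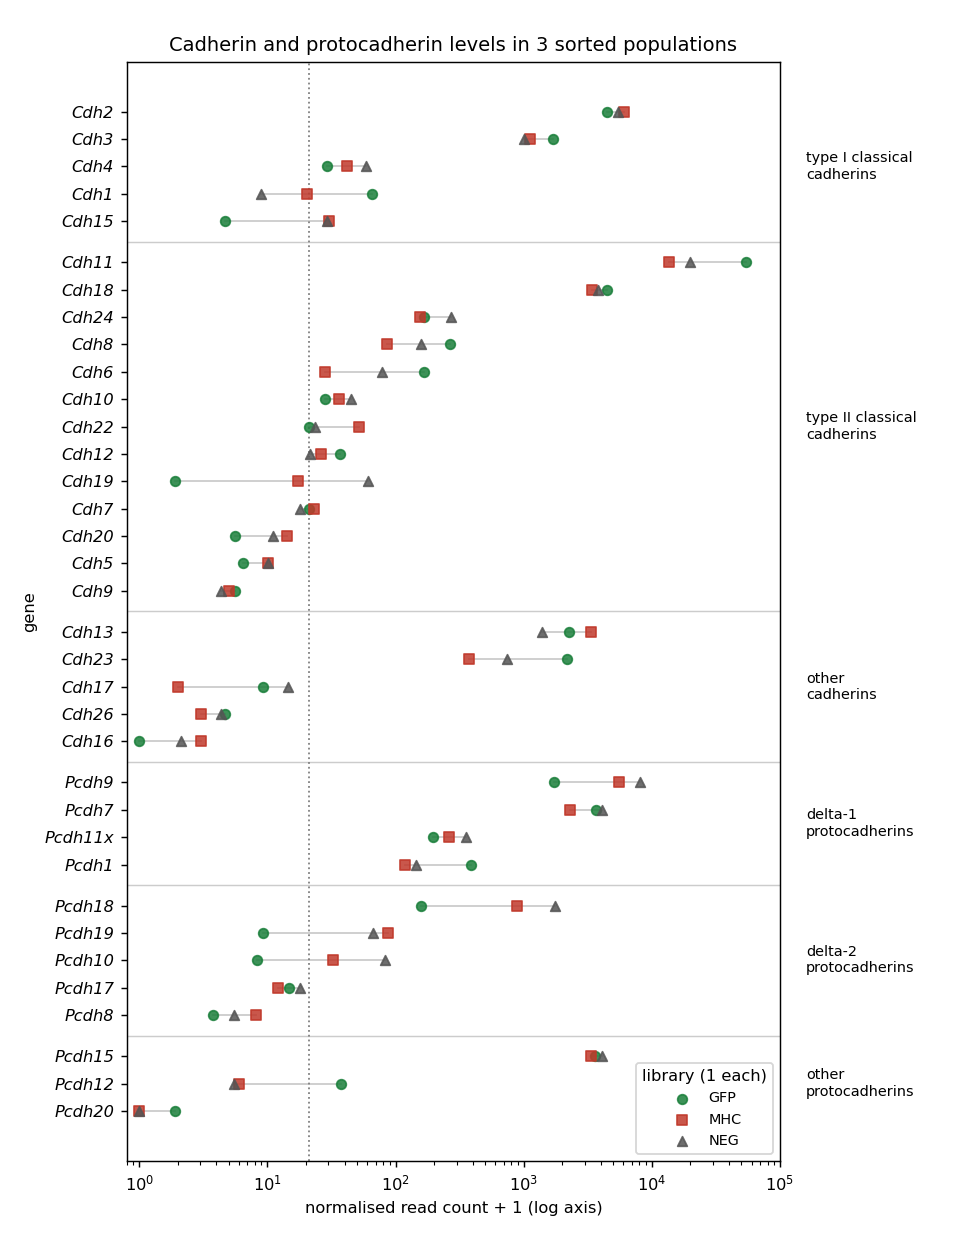
Normalised read count + 1 on a log axis for all 35 members, ordered by role, with 1 point per library (GFP circles, MHC squares, NEG triangles). The dotted line marks a value of 20, and Cdh11 in GFP is the rightmost point, at 54674.

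A larger share of reads fell on the members in GFP cells, and the excess lay in Cdh11. The members together held 0.169% of all reads in GFP cells, 0.0766% in MHC cells and 0.0967% in NEG cells. Cdh11 alone held 68.0% of the members' reads in GFP (exact binomial 95% limits 67.7 and 68.3), 32.9% in MHC (32.5 to 33.4) and 38.4% in NEG (37.9 to 38.8). Next in GFP were Cdh18 with 4896 reads and Cdh2 with 4893, a difference within counting error, and only 1095 of the Cdh18 reads lay outside genes contained in it. Next in MHC was Cdh2 with 14.8% and in NEG Pcdh9 with 15.6%. In reads, Cdh11 had 59814 of the members' 87926 in GFP, 13322 of 40462 in MHC and 17555 of 45727 in NEG. The remaining members thus had similar numbers of reads in each library, and as a share of all reads they were not highest in GFP. All intervals cover counting error only. Long genes gather more intronic reads, so levels of different genes are compared per kb of gene span. On that scale Cdh11 also came first in every library, at 359 per kb in GFP cells, 88.7 in MHC cells and 130 in NEG cells. The next in GFP were Cdh3 with 36.5 per kb and Cdh2 with 20.3 per kb. In MHC the next were Pcdh18 with 62.7 per kb and Cdh2 with 27.5 per kb, and in NEG Pcdh18 with 126 per kb lay just under Cdh11. Per kb of exon Cdh11 led more widely in NEG, at 2227 against 1186 for Pcdh9 and 330 for Pcdh18.

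**Figure D2:**
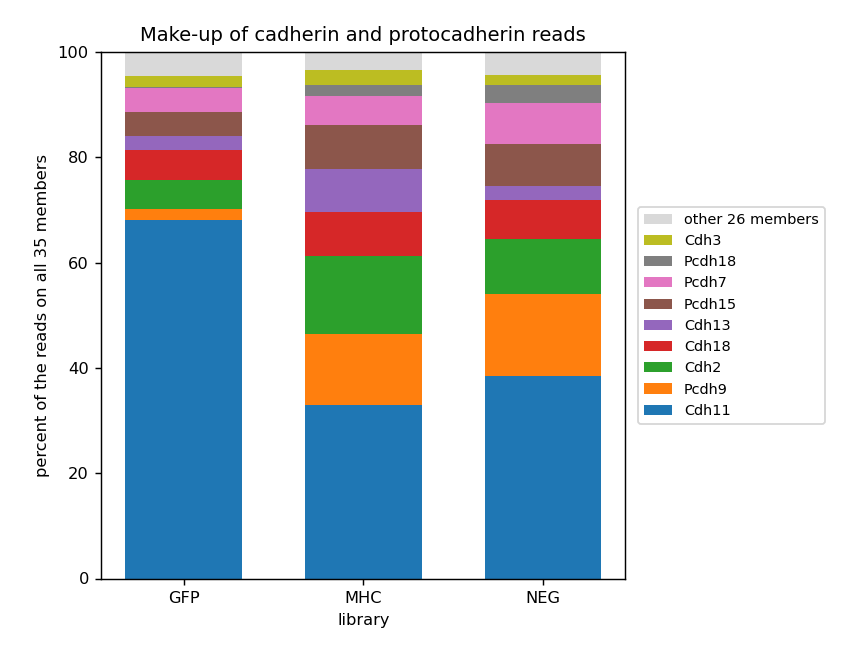
Percent of the reads on all 35 members held by each of the 9 leading members and by the other 26, as stacked bars for the GFP, MHC and NEG libraries. The Cdh11 segment takes 68.0% of the GFP bar, 32.9% of the MHC bar and 38.4% of the NEG bar.

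Set against MHC, GFP had 7 of the 35 members higher and 6 lower, while 12 lay within 2-fold and 10 were below 20 in both libraries. Over all 20879 genes with 20 or more in the higher library, 31.9% were called, with 15.6% higher and 16.4% lower in GFP. Among the 25 members that reached 20, 28% were higher and 24% lower. Of the 13 called members, 5 reached 20 in only 1 of the libraries and so passed the minimum through the library where they were high. Set against NEG, GFP had 6 members higher, against 14.1% of 20814 genes, and 6 lower, against 15% of those genes (29.1% called in all), while 14 lay within 2-fold and 9 were below 20 in both. Among the 26 members that reached 20 in GFP or NEG, 23.1% were higher and 23.1% lower. Of those 12 called members, 6 reached 20 in 1 library alone. Both comparisons use the same GFP library and are therefore not independent. Cdh1, Cdh6, Cdh11, Cdh23, Pcdh1 and Pcdh12 were higher in GFP than in both other libraries, and Cdh15, Pcdh9, Pcdh10, Pcdh18 and Pcdh19 were lower than in both. For Cdh23 this rests on the reads of a gene inside it, and outside contained genes Cdh8 was higher than in both while Cdh23 was below NEG. Among the 26 members with 20 or more in some library, 6 were thus called higher and 5 lower in GFP than in both. Over all genes on that base, 10.7% were higher and 11% lower.

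**Figure D3:**
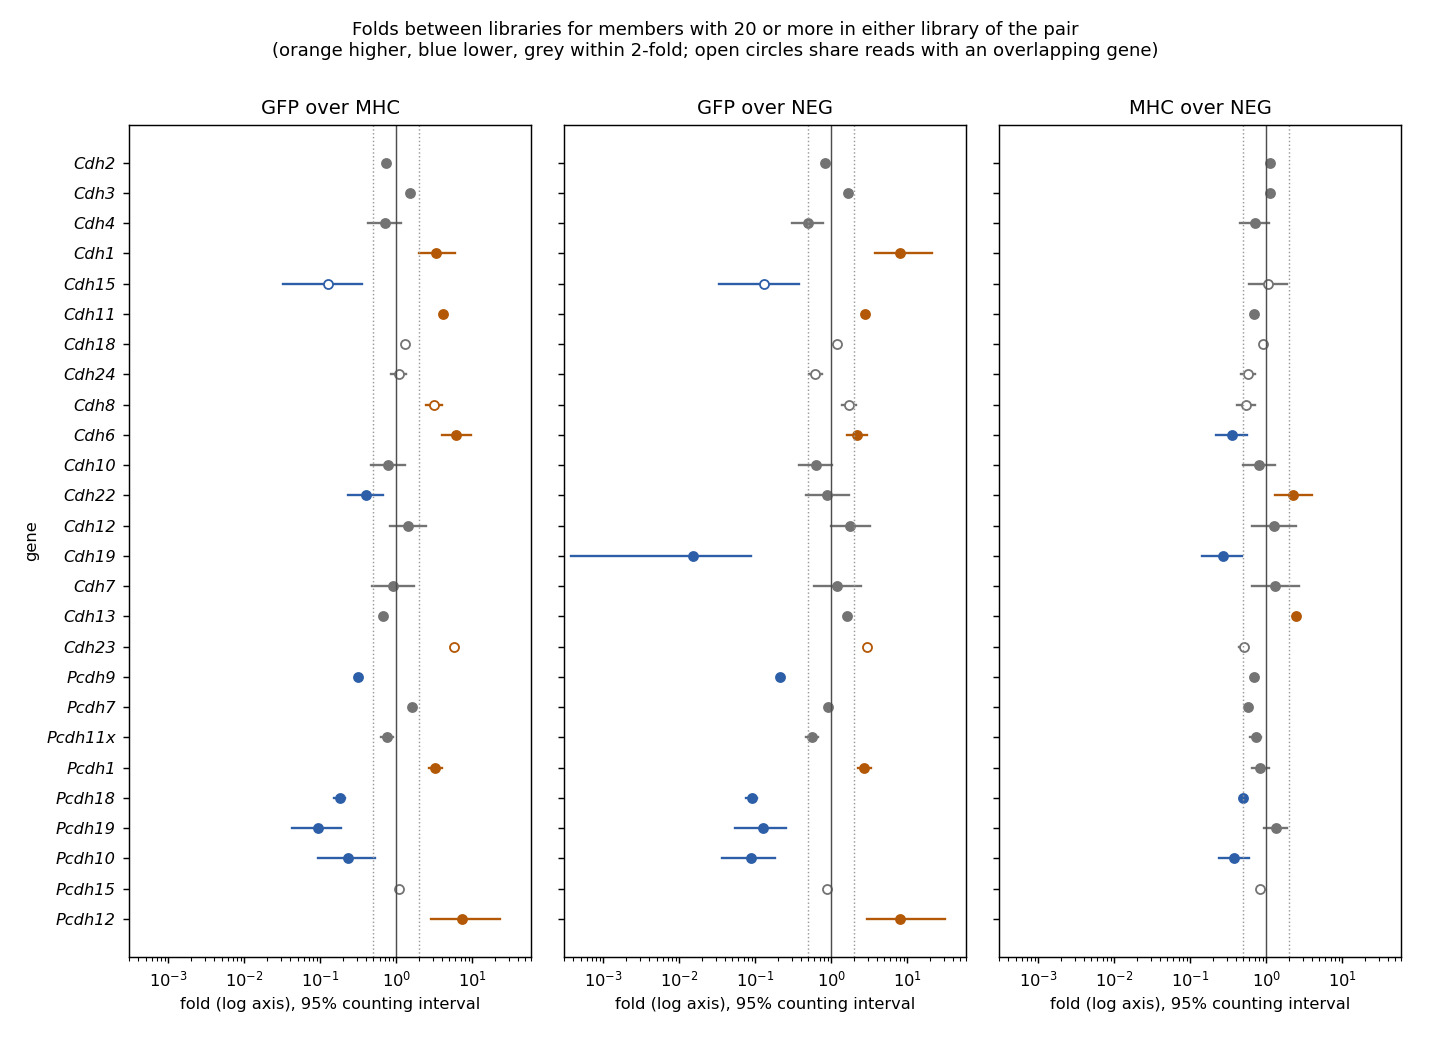
Fold between libraries on a log axis with its exact 95% counting interval, for GFP over MHC, GFP over NEG and MHC over NEG, with 1 row per member that reached 20 in a library. Orange marks members called higher in the first library and blue those called lower, and open circles mark members that share reads with an overlapping gene. The delta-2 genes Pcdh10, Pcdh18 and Pcdh19 lie to the left in both GFP panels, and most members lie near 1 in MHC over NEG.

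Among the 5 type I cadherins, 2 were called in GFP against MHC, with Cdh1 higher and Cdh15 lower. The shares over all genes that reached 20 were 15.6% higher and 16.4% lower. Cdh2 (N-cadherin, the main cadherin of the intercalated disc) stood at 4473 in GFP cells, 6060 in MHC cells and 5480 in NEG cells. Its 3 values lay close together, and GFP was 1.36-fold (95% limits 1.31 and 1.41) below MHC. The cardiomyocyte markers of the same libraries, with the sort gene Myh6 included, summed to values far apart. Cdh3 (P-cadherin, chr8:106510913-106556908, mm10) stood at 1680 in GFP cells, 1110.1 in MHC cells and 1001 in NEG cells. It was highest in GFP, by 1.51-fold (95% limits 1.40 and 1.63) over MHC and 1.68-fold (95% limits 1.55 and 1.82) over NEG, and so within 2-fold. Cdh1 (E-cadherin, the classical epithelial cadherin, chr8:106603351-106670246) lies 46.4 kb beyond Cdh3 on the same chromosome. It stood at 64.0 in GFP cells (70 reads), 19.2 in MHC cells (19 reads) and 7.91 in NEG cells (7 reads). That made it 3.32-fold (95% limits 1.98 and 5.85) higher in GFP cells than in MHC cells and 8.09-fold (95% limits 3.73 and 20.9) higher than in NEG. Per kb of gene span, Cdh1 in GFP stood at 0.956, against 36.5 for Cdh3 and 359 for Cdh11 in the same library, so E-cadherin was a small part of the cadherin RNA. Of 10 epithelial markers, 3 were higher in GFP cells than in MHC cells, 1 lay within 2-fold and 6 were below 20 in both. The sum of the 10 was 21980 in GFP cells, 1427 in MHC cells and 2657 in NEG cells. Epcam, a defining epithelial marker, was at 25.6 in GFP cells, 15.2 in MHC cells and 14.7 in NEG cells. The part of other cell types in the Cdh1 difference was not tested.

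Cdh15 and Cdh4 were the remaining type I members. Cdh15 (M-cadherin, of skeletal muscle and its precursors) stood at 3.66 in GFP cells (4 reads), 29.4 in MHC cells (29 reads) and 28.2 in NEG cells (25 reads), and was 8.03-fold (95% limits 2.82 and 31.5) lower in GFP cells than in MHC cells and 7.72-fold (95% limits 2.67 and 30.5) lower than in NEG. It lies inside Gm20388, a gene model of several megabases on the same strand, so every read on Cdh15 lies in that model too. The 9 skeletal muscle markers summed to 2379 in GFP cells, 4700 in MHC cells and 2050 in NEG cells, with 1 higher and 2 lower in GFP than in MHC and 5 below 20 in both. Those 5 were the regulators Myod1, Myog, Myf5, Myf6 and Pax7, each below 10 in every library. The part of muscle cells in the Cdh15 difference was not tested. Cdh4 (R-cadherin) stood at 28.3 in GFP cells, 40.5 in MHC cells and 57.6 in NEG cells. Its GFP value was 2.03-fold (95% limits 1.28 and 3.29) below NEG, and on the (value + 1) scale it came just short of 2-fold. It was called lower than in NEG under TMM scaling, and also by reads outside contained genes.

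Of the 13 type II cadherins, 3 were higher in GFP cells than in MHC cells, 1 was lower, 5 lay within 2-fold and 4 were below 20 in both. For all genes that reached 20, the shares were 15.6% higher and 16.4% lower. Cdh11 (ENSMUSG00000031673, chr8:102632995-102785111, known as osteoblast cadherin and found in mesenchyme) stood at 54674 in GFP cells, 13494 in MHC cells and 19831 in NEG cells. GFP was 4.05-fold (95% limits 3.98 and 4.13) above MHC and 2.76-fold (95% limits 2.71 and 2.80) above NEG, and MHC was 1.47-fold (95% limits 1.44 and 1.5) below NEG. The fibroblast and matrix markers did not share this order as a sum, which was 1870357 in GFP cells, 5780889 in MHC cells and 5705740 in NEG cells. Within that list, Pdgfra, Dcn and Thy1 were higher in GFP cells than in MHC cells and 5 of the 10 genes were lower. The epicardial and mesothelial sum was highest in GFP as well, and its part in the Cdh11 difference was not tested.

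Cdh6 (ENSMUSG00000039385, chr15:13034200-13173639), a cadherin known from the developing kidney and neural crest, stood at 166 in GFP cells, 27.3 in MHC cells and 76.8 in NEG cells. It was 6.08-fold (95% limits 4.05 and 9.48) higher in GFP cells than in MHC cells and 2.2-fold (95% limits 1.63 and 2.91) higher than in NEG. MHC was in turn 2.81-fold (95% limits 1.77 and 4.56) below NEG, so the libraries were ordered GFP, NEG, MHC, as for Cdh11. Over their whole spans Cdh18, Cdh23 and Pcdh1 had this order too. Cdh8, best known from synapses, stood at 263 in GFP cells, 84.1 in MHC cells and 156 in NEG cells, the same order again. A pseudogene inside it, Gm15681, carried part of these reads. Outside the genes contained in Cdh8 the values were 176 in GFP cells, 45.6 in MHC cells and 79.1 in NEG cells, and GFP was 3.85-fold (95% limits 2.77 and 5.45) above MHC and 2.22-fold (95% limits 1.68 and 2.96) above NEG. By this count Cdh8 was also called higher than in NEG, where over the whole gene it was 1.69-fold higher.

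Cdh22 was the only type II member called lower in GFP cells than in MHC cells. It stood at 20.1 in GFP cells, 50.6 in MHC cells and 22.6 in NEG cells, and MHC stood 2.24-fold (95% limits 1.31 and 3.98) above NEG. Cdh19 (ENSMUSG00000047216, chr1:110889195-110977372), known in mice from cells of the Schwann cell lineage, stood at 0.914 in GFP cells (1 read), 16.2 in MHC cells (16 reads) and 59.9 in NEG cells (53 reads). Its value in NEG was 65.5-fold (95% limits 11.3 and 2635) that in GFP, and MHC was 3.69-fold (95% limits 2.08 and 6.92) below NEG. The value in MHC was 17.7-fold (95% limits 2.75 and 744) that in GFP, but both were under 20, so no call was made. Glia and neural crest markers were ordered differently, with a sum of 1146 in GFP cells, 297 in MHC cells and 591 in NEG cells. Of these 8 genes, 4 were higher and 0 lower in GFP than in MHC, and 3 were higher and 0 lower than in NEG. Sox10 and Foxd3 were below 10 in every library. The part of such cells in the Cdh19 difference was not tested. Cdh24 stood at 165 in GFP cells, 154 in MHC cells and 269 in NEG cells, and shares reads at one end with Gm17606 on the opposite strand. Cdh7, Cdh10 and Cdh12 were within 2-fold in every comparison. Cdh7 stood at 20.1 in GFP cells, 22.3 in MHC cells and 16.9 in NEG cells. Cdh10 stood at 27.4 in GFP cells, 35.5 in MHC cells and 44.1 in NEG cells. Cdh12 stood at 35.6 in GFP cells, 25.3 in MHC cells and 20.3 in NEG cells.

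Cdh5 (VE-cadherin, the cadherin of endothelial junctions) was low everywhere, at 5.48 in GFP cells, 9.12 in MHC cells and 9.04 in NEG cells. The 10 endothelial markers summed to 1976 in GFP cells, 3761 in MHC cells and 3188 in NEG cells, and 3 of them were lower and 2 higher in GFP than in MHC. Cldn5, a defining marker, was at 0 in GFP and MHC and at 4.52 in NEG. Together with Cdh5, 8 further members stayed under 20 in every library: Cdh9, Cdh16, Cdh17, Cdh20, Cdh26, Pcdh8, Pcdh17 and Pcdh20. Their values ran from 0 to 13.7 in GFP, 0 to 13.2 in MHC and 0 to 16.9 in NEG, that is at most 15 reads. Cdh16 and Cdh17 are cadherins of kidney and of gut epithelium. No fold is given for these 9.

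Of the 5 other cadherins, only Cdh13 and Cdh23 reached 20 in any library. Cdh13 (T-cadherin, held in the membrane by a lipid anchor and without a cytoplasmic tail, chr8:118283733-119324921) stood at 2248 in GFP cells, 3373 in MHC cells and 1382 in NEG cells. It was one of 2 members higher in MHC cells than in NEG cells, by 2.44-fold (95% limits 2.29 and 2.61), the other being Cdh22. For Cdh13, GFP lay between MHC and NEG, 1.63-fold (95% limits 1.52 and 1.74) above NEG and 1.5-fold (95% limits 1.42 and 1.58) below MHC. In the MHC over NEG comparison 4 members were lower, Cdh6, Cdh19, Pcdh10 and Pcdh18, and 18 lay within 2-fold. Among the 24 members that reached 20 in MHC or NEG, 8.33% were higher and 16.7% lower in MHC. Over 20572 genes, 10.6% were called, with 5.35% higher and 5.21% lower in MHC. Cardiomyocyte markers were higher in MHC cells than in NEG cells for 10 of 10 genes, among them Myh6, whose promoter drove the sort reporter.

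Cdh23, which forms the upper part of the tip link of sensory hair cells with Pcdh15 as the lower part, turned its direction against NEG once the genes inside it were set apart. Over its whole span (chr10:60302748-60696490) its value was 2174 in GFP cells, 374 in MHC cells and 743 in NEG cells, 5.82-fold (95% limits 5.21 and 6.51) higher in GFP cells than in MHC cells. The gene 4632428N05Rik lies inside it on the opposite strand (chr10:60346851-60372684) and stood at 1884 in GFP cells, 262 in MHC cells and 300.5 in NEG cells. Outside all contained genes, Cdh23 was left with 268 in GFP cells, 95.2 in MHC cells and 410.1 in NEG cells. GFP was then 2.81-fold (95% limits 2.22 and 3.59) above MHC and 1.53-fold (95% limits 1.31 and 1.79) below NEG, the opposite direction to the whole-gene value of 2.92-fold (95% limits 2.68 and 3.19) above NEG. MHC was 4.31-fold (95% limits 3.42 and 5.46) below NEG, where the whole-gene values lay just within 2-fold.

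Pcdh15 and Cdh18 owed most of their reads to genes inside them as well. Pcdh15, with a span of 1547 kb of which 1.54% is exon, stood at 3601 in GFP cells, 3368 in MHC cells and 4081 in NEG cells, and outside contained genes it kept 1101 in GFP cells, 1447 in MHC cells and 1705 in NEG cells. Its contained genes were led by the lincRNA Gm15398 and the pseudogene Gm6407. Cdh18, with a span of 925 kb of which 0.492% is exon, stood at 4475 in GFP cells, 3395 in MHC cells and 3798 in NEG cells, and outside contained genes it kept 1001 in GFP cells, 552 in MHC cells and 785 in NEG cells. The contained gene with the most reads was the pseudogene Gm5803. Neither member reached 2-fold between any libraries by either count. Subtracting the outermost contained genes removes reads of the host that fall there too, so the remainder is a low estimate of the host.

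**Figure D4:**
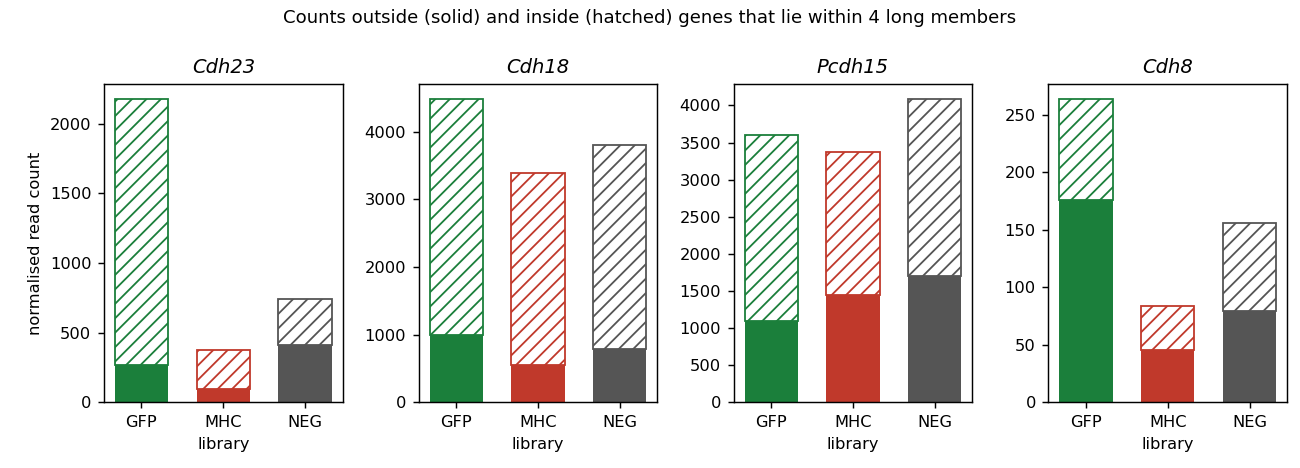
Normalised read count of Cdh23, Cdh18, Pcdh15 and Cdh8 in the GFP, MHC and NEG libraries, split into reads outside the genes contained in each member (solid) and the rest (hatched). For Cdh23 the whole bar is tallest in GFP, at 2174, while the solid part is tallest in NEG, at 410.1.

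The delta-2 protocadherins, which act on the actin cytoskeleton through the WAVE complex and are known from neuronal wiring, included 3 genes called lower in GFP than in both other libraries, Pcdh10, Pcdh18 and Pcdh19. The other 2 of the 5, Pcdh8 and Pcdh17, were below 20 throughout. Pcdh10 and Pcdh19 were under 20 in GFP and passed the minimum only through the libraries where they were high, and of all genes 16.4% were called lower against MHC and 15% against NEG. Pcdh18 (ENSMUSG00000037892, chr3:49743296-49757316) stood at 158 in GFP cells, 879 in MHC cells and 1770 in NEG cells, 5.56-fold (95% limits 4.72 and 6.58) lower in GFP cells than in MHC cells and 11.2-fold (95% limits 9.56 and 13.2) lower than in NEG. MHC was 2.01-fold (95% limits 1.85 and 2.19) below NEG. Pcdh10 (chr3:45378398-45434566) stood at 7.31 in GFP cells (8 reads), 31.4 in MHC cells (31 reads) and 82.5 in NEG cells (73 reads), and was 4.29-fold (95% limits 1.93 and 10.8) lower in GFP cells than in MHC cells and 11.3-fold (95% limits 5.43 and 27.1) lower than in NEG. Both genes lie on chromosome 3 and both were ordered NEG, MHC, GFP. Pcdh19 (chrX:133582863-133688993), known for its part in an inherited human epilepsy, stood at 8.23 in GFP cells (9 reads), 87.1 in MHC cells (86 reads) and 65.5 in NEG cells (58 reads), and was 10.6-fold (95% limits 5.33 and 23.9) lower in GFP cells than in MHC cells. It was 7.96-fold (95% limits 3.92 and 18.3) lower than in NEG, and MHC and NEG lay within 2-fold of each other. Neuronal markers also had their lowest sum in GFP, at 342 in GFP cells, 439 in MHC cells and 713 in NEG cells, with 2 of 10 higher and 1 lower in GFP cells than in MHC cells. Smooth muscle markers were lower in GFP cells than in MHC cells for 6 of 7 genes, with sums of 18394 in GFP cells, 76823 in MHC cells and 67908 in NEG cells. The part of either in the delta-2 differences was not tested.

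Sequences upstream of these 3 genes are shown because the genes were low together in GFP, with that of Cdh6, which was high there, beside them. Each is the 250 bases before the annotated start, from the RefSeq annotation of GRCm38.p6, printed 5′ to 3′ on the strand of the gene. Capitals mark the GC box (GGGCGG or CCGCCC), the CCAAT box (CCAAT or ATTGG), the TATA box (TATAAA or TTTATA) and the E-box (CAGGTG or CACCTG), each searched on both strands.
Pcdh10: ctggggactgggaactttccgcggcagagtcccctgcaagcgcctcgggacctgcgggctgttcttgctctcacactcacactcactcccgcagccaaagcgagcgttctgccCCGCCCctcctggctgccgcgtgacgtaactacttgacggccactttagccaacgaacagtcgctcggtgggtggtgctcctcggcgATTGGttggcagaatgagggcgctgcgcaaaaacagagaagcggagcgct
Pcdh18: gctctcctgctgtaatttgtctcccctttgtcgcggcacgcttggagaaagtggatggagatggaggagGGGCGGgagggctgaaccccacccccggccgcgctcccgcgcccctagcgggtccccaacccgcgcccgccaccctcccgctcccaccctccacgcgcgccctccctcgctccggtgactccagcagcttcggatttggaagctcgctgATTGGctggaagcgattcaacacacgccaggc
Pcdh19: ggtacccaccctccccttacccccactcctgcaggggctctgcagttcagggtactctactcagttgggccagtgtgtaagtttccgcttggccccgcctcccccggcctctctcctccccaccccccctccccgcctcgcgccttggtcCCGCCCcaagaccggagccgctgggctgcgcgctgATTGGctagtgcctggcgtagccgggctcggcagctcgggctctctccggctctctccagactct
Cdh6: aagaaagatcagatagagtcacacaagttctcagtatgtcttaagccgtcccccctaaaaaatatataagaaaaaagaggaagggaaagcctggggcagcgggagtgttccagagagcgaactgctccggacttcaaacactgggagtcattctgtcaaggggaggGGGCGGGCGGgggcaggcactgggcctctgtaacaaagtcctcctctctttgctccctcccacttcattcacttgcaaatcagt
They lie at chr3:45378148-45378397 on the plus strand for Pcdh10, chr3:49757317-49757566 on the minus strand for Pcdh18, chrX:133688994-133689243 on the minus strand for Pcdh19 and chr15:13173676-13173925 on the minus strand for Cdh6. The windows of Pcdh10, Pcdh18 and Pcdh19 each held 1 GC box and 1 CCAAT box, and that of Cdh6 held 2 overlapping GC boxes and 0 CCAAT boxes. The other members lower in GFP than in both lacked the pair, Pcdh9 having a CCAAT box and no GC box and Cdh15 having 3 GC boxes and no CCAAT box. With or without a GC box, the CCAAT box occurred in 33.8% of all windows and in some window of 14 of 22 members. With or without a CCAAT box, the GC box occurred in 32.7% of all windows and in some window of 9 of 22 members. CpG dinucleotides numbered 22 in Pcdh10, 23 in Pcdh18, 16 in Pcdh19 and 6 in Cdh6, where the median was 10 over the members' windows and 6 over all windows. A GC box and a CCAAT box together occurred in 11% of 32851 windows and in 5 of the 22 members with a window, the other 2 being Cdh8 and Pcdh17. Of these, Cdh8 was higher in GFP cells than in MHC cells, at 263 against 84.1, and its window held 20 CpG dinucleotides. The pair was thus not limited to members low in GFP. The E-box, the motif of the Snail and Zeb repressors, occurred in 17.2% of all windows and in 2 of those 22 members, Cdh7 and Pcdh15, and the TATA box in 12.4% of all windows. These are matches of letters in a short window and not sites of binding. Windows of Cdh1, Cdh3 and Cdh11 were not used here.

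The delta-1 protocadherins went different ways. Pcdh9 (ENSMUSG00000055421, chr14:93015512-93888732) stood at 1718 in GFP cells, 5574 in MHC cells and 8046 in NEG cells, 3.25-fold (95% limits 3.08 and 3.42) lower in GFP cells than in MHC cells and 4.68-fold (95% limits 4.45 and 4.93) lower than in NEG. It shared the order NEG, MHC, GFP with Pcdh10 and Pcdh18, and also with Cdh4, Cdh10, Cdh19 and Pcdh11x. Pcdh1, known from airway epithelium, stood at 387 in GFP cells, 119 in MHC cells and 142 in NEG cells, which put GFP 3.26-fold (95% limits 2.65 and 4.04) above MHC and 2.72-fold (95% limits 2.22 and 3.34) above NEG. Its neighbour Pcdh12, 55.0 kb away on chromosome 18 and best known from endothelium, was likewise highest in GFP, at 36.6 in GFP cells (40 reads), 5.06 in MHC cells (5 reads) and 4.52 in NEG cells (4 reads). It was 7.22-fold (95% limits 2.85 and 23.4) higher in GFP cells than in MHC cells, where 2 of the 10 endothelial markers were higher and 3 lower. Pcdh7 stood at 3696 in GFP cells, 2302 in MHC cells and 4051 in NEG cells, and Pcdh11x stood at 197 in GFP cells, 258 in MHC cells and 356 in NEG cells, both within 2-fold in every comparison.

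By position, chromosome 3 holds Pcdh10 and Pcdh18, both lower in GFP than in both other libraries. Chromosome 18 holds Pcdh1 and Pcdh12, both higher in GFP, and Cdh2, which was within 2-fold. Chromosome 8 holds 8 members, Cdh1, Cdh3, Cdh5, Cdh8, Cdh11, Cdh13, Cdh15 and Cdh16, of which Cdh1, Cdh8 and Cdh11 were higher in GFP cells than in MHC cells and Cdh15 lower. Chromosome 15 holds 5 type II members, with Cdh6 higher in GFP cells than in MHC cells and Cdh9, Cdh10, Cdh12 and Cdh18 not called. Chromosome 14 holds Cdh24, Pcdh8, Pcdh9, Pcdh17 and Pcdh20, of which Pcdh9 was lower in GFP. Chromosome X holds Pcdh19, lower in GFP, and Pcdh11x, within 2-fold. The members' other chromosomes are not listed here. Of all genes that reached 20, 31.9% were called in GFP against MHC. Against both other libraries, 10.7% were higher and 11% lower in GFP. Grouping by position was not tested.

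Partners of the cadherins were set beside them, with lists chosen when earlier results of these data were known. Over all genes with 20 or more in the higher library, 15.6% were higher and 16.4% lower in GFP cells than in MHC cells. Of 13 catenins and armadillo proteins, 5 were higher in GFP cells than in MHC cells, 1 lower and 7 within 2-fold, with a median log2 ratio of 0.58, against 0.00 over all 22235 genes with a mean of 10 or more. The core junction catenins were among the 7: Ctnnb1 (beta-catenin) stood at 20456 in GFP cells, 25109 in MHC cells and 34400 in NEG cells, and Ctnna1 (alpha-catenin) stood at 11315 in GFP cells, 9486 in MHC cells and 11272 in NEG cells. Ctnnd1, a catenin of the membrane-proximal tail, stood at 10230.2 in GFP cells, 6838 in MHC cells and 7331 in NEG cells. Ctnna2, the alpha-catenin of neurons, stood at 1265 in GFP cells, 42.5 in MHC cells and 49.7 in NEG cells, but 206 in GFP cells, 39.5 in MHC cells and 41.8 in NEG cells outside the gene Lrrtm1 that lies within it. Ctnna3, the alpha-catenin of heart muscle, was 848 in GFP cells, 410.2 in MHC cells and 221 in NEG cells over its whole span, and 126 in GFP cells, 372 in MHC cells and 172 in NEG cells outside contained genes, chiefly Lrrtm3. So Ctnna3 turned from higher to lower in GFP cells than in MHC cells by this count. Ctnna3 was looked up for this after its values were seen. The 1 gene called lower was the plakophilin Pkp1, by 5.02-fold (95% limits 2.94 and 9.06). Of its relatives, Pkp3 was called higher at 23.8 in GFP cells, 9.12 in MHC cells and 13.6 in NEG cells, and Pkp2 was within 2-fold of MHC at 2639 in GFP cells, 1462 in MHC cells and 696 in NEG cells. Jup (plakoglobin) was called higher, at 5317 in GFP cells, 2270 in MHC cells and 1623 in NEG cells.

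Among desmosome genes, Dsp, Dsc2 and Dsg2 were lower in GFP cells than in MHC cells, while periplakin and envoplakin were higher. Of 12 desmosomal cadherins and plakins, 3 were lower in GFP cells than in MHC cells, 2 higher and 7 below 20 in both, with a median log2 ratio of −1.39 over 5 genes. The shares over all genes that reached 20 were 16.4% lower and 15.6% higher. Dsp (desmoplakin) stood at 651 in GFP cells, 4583 in MHC cells and 1421 in NEG cells, and Dsc2 stood at 56.7 in GFP cells, 266 in MHC cells and 175 in NEG cells. Dsg2, which shares reads with an overlapping gene, stood at 232 in GFP cells, 611 in MHC cells and 432 in NEG cells. Ppl (periplakin) stood at 1548 in GFP cells, 214 in MHC cells and 150.2 in NEG cells, and Evpl (envoplakin) was 3.12-fold (95% limits 2.55 and 3.84) higher in GFP cells than in MHC cells.

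Among 17 further members of the cadherin superfamily, 2 were higher in GFP cells than in MHC cells, 5 lower and 7 within 2-fold, with a median log2 ratio of −0.27 over 14 genes. Beside each count in this paragraph stands the share over all genes that reached 20, 15.6% higher and 16.4% lower. Celsr1, a planar polarity cadherin, was 6.17-fold (95% limits 5.22 and 7.35) higher in GFP cells than in MHC cells, at 982 in GFP cells, 159 in MHC cells and 169 in NEG cells. Fat3 was 5.79-fold (95% limits 4.58 and 7.37) lower, at 78.6 in GFP cells, 455 in MHC cells and 799 in NEG cells. Of 13 junction linkers and nectins, 3 were higher in GFP cells than in MHC cells, 2 lower and 8 within 2-fold (median log2 ratio −0.17). Vcl (vinculin, which joins the junction to actin) stood at 46604 in GFP cells, 12803 in MHC cells and 10529 in NEG cells, and Pvrl2 (a nectin) stood at 9888 in GFP cells, 1344 in MHC cells and 1524 in NEG cells. Both share reads with an overlapping gene. Lmo7 was 6.75-fold (95% limits 6.46 and 7.07) lower in GFP cells than in MHC cells. Of 12 genes of cadherin processing, 4 were higher and 1 lower (median log2 ratio 0.34), with the presenilin gene Psen2 at 6001 in GFP cells, 542 in MHC cells and 670 in NEG cells.

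Of the listed transcriptional repressors of Cdh1, Snai1, Snai2, Twist2 and Zeb2 were lower in GFP cells than in MHC cells. The other repressors, Zeb1, Twist1, Tcf3 and Tcf4, lay within 2-fold. Over all genes with 20 or more in the higher library, 15.6% were higher and 16.4% lower. Of 13 repressors and activators, 4 were lower in GFP cells than in MHC cells and 1 higher, with 5 within 2-fold and 3 below 20 in both (median log2 ratio −0.74 over 11 genes). Snai1 (Snail) stood at 225 in GFP cells, 3595 in MHC cells and 2093 in NEG cells, 16.0-fold (95% limits 14.0 and 18.3) lower in GFP cells than in MHC cells. Snai2 (Slug) stood at 166 in GFP cells, 862 in MHC cells and 825 in NEG cells. Twist2 and Zeb2 were the others lower, and Klf4, an activator of Cdh1, was 2.46-fold (95% limits 2.39 and 2.53) higher at 16170 in GFP cells, 6581 in MHC cells and 8923 in NEG cells. Of the genes that maintain the epithelial state, Grhl2, Esrp1 and Ovol2 were below 20 in every library, and Ovol1 stood at 55.8 in GFP cells, 34.4 in MHC cells and 24.9 in NEG cells, called higher in GFP than in NEG. With 3 libraries these values are set side by side, and no relation to Cdh1 was tested.

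**Figure D5:**
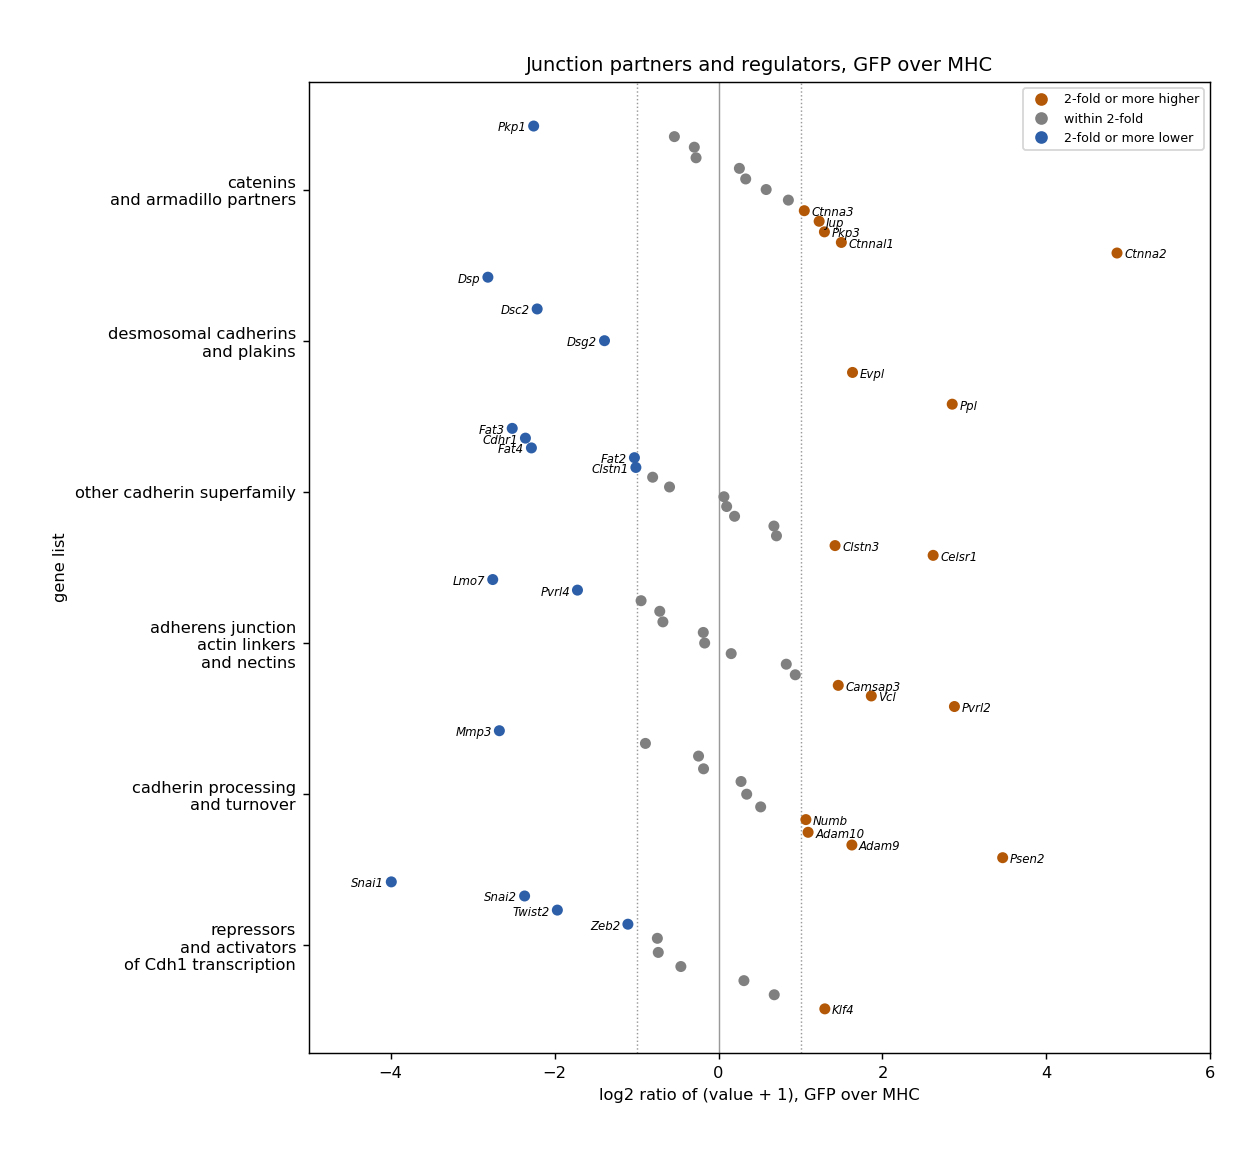
Log2 ratio of (value + 1), GFP over MHC, for genes of 6 lists with 20 or more in either library, with 1 point per gene and the names of those called. Snai1 lies at −3.99 in the lowest row and Ctnna2 at 4.86 in the top row, where Ctnna2 and Ctnna3 include reads of genes within them.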

How the data were processed

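RNA-seq of 3 sorted populations with 1 library each was used. Per the labels' protocols, RNA was prepared with a small-sample kit, libraries with a TruSeq RNA kit, and single reads of 50 bases were sequenced. The submitters' processing notes list build mm10 and the tools STAR 2.3.0e, FastQC 0.11.2, DESeq2 1.2.10 and bedtools 2.17.0, with no role for any. The deposited signal values are read counts that the authors divided by 1 size factor per library. In each library 100% of values were whole multiples (tolerance 0.01) of the value of a single read (0.914 for GFP, 1.01 for MHC, 1.13 for NEG), and whole reads were recovered from them. With no residual degrees of freedom no count model was fitted, so none calls any gene.

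Among 1620 genes of 300 or more reads inside another gene, the host had at least as many reads in 1618, and in 1006 of 1006 with a host on the opposite strand. Counting was therefore treated as over the whole span and without strand, and reads outside contained genes were computed as an alternative. Log2 ratios used a pseudocount of 1, which understates differences of low genes, while each fold divides deposited values directly. Limits are exact conditional binomial (Clopper-Pearson) at 95%. Reads lack molecular identifiers and may repeat a molecule, so these limits cover counting error only. List medians used genes whose mean reached 10. The rule for the members used symbols and biotype and no measured value. Earlier results of these data were known when the members and lists were chosen. All members were accounted for. From each other list the text drew on up to 3 genes of highest mean and up to 2 of largest GFP to MHC ratio each way, and any others were named after their values were seen. Exon lengths and strands came from GENCODE M21 by gene identifier, and upstream sequences from RefSeq (22 of 35 members matched by symbol). The computation was tested on simulated reads. Python 3.11.15, scipy 1.17.1, R 4.3.3 and edgeR 4.0.16 (for TMM factors only) were used. Alternatives were the pseudocount, the minimum value, the fold, the scaling, and leaving out members that share reads.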

Additional observations from a re-analysis of the deposited data

How the results depend on the processing

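No paired analysis was possible because each population had 1 library, and for the same reason no replicate could be left out. Scaling by total reads moved the median log2 ratio of all genes by 0.17 for GFP over MHC and by 0.16 for GFP over NEG, and kept 78 calls of single members over the comparisons. TMM scaling changed 1 call (Cdh4, GFP over NEG) and a pseudocount of 10 changed 1 (Cdh22, MHC over NEG). With no minimum value, 10 members in place of 6 were lower in GFP than in MHC. With a minimum of 100, the numbers were 5 higher and 2 lower in GFP than in MHC, 4 higher and 2 lower in GFP than in NEG, 1 higher in MHC than in NEG and 1 lower in MHC than in NEG. At 3-fold, 2 members were higher in GFP than in NEG, 0 higher and 1 lower in MHC than in NEG. At a pseudocount of 10, 1 member was higher in MHC than in NEG.

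Cdh11 held 72.9% of the members' values per kb of gene span in GFP cells, 35% in MHC cells and 34.8% in NEG cells. Without members that share reads it held 78.5% in GFP cells, 40.2% in MHC cells and 46.6% in NEG cells. Per kb of exon, an alternative chosen after seeing the data, it held 65.5% in GFP cells, 29.8% in MHC cells and 34.7% in NEG cells. Reads outside contained genes, also chosen after seeing the data, changed 4 calls of members: Cdh4, Cdh8 and Cdh23 for GFP over NEG, and Cdh23 for MHC over NEG. The log2 ratio of Cdh23 for GFP over NEG was −0.61 by this count, against 1.55 over the whole gene. That of Ctnna3 was −1.55 for GFP over MHC and −0.44 for GFP over NEG. Removing the reads of contained genes makes these changes by construction. Depth limits Cdh1, Cdh15, Cdh19, Pcdh10, Pcdh12 and Pcdh19, which rest on few reads in some library.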
